A study of Mus musculus with 12 samples.

Results

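Phosphate and pyrophosphate mineralization genes were examined here in mouse mesenchymal stem cells (MSCs), as 7 genes: Ank, Enpp1, Alpl, Phospho1, Slc20a1, Slc20a2 and Abcc6. The genes were chosen by a single measured value, a higher H3K27ac signal of an intronic Ank region in old cells. The H3K27ac difference at Ank is therefore given as a description. The test described below was run over all regions, Ank included, but its H3K27ac result at Ank is not read as support. The members of the analysis were the regions of the deposited H3K27ac and H3K27me3 tables that overlapped a gene body plus 50 kb on each side, called the gene window below. This gave 41 of 31617 H3K27ac regions and 21 of 28047 H3K27me3 regions, for 7 of 21911 annotated protein-coding genes. Ank held 16 of the H3K27ac regions, Slc20a2 6, Enpp1 5, Alpl 5, Slc20a1 4, Abcc6 3 and Phospho1 2.

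The marks were mapped by CUT&RUN, in which an antibody tethers a nuclease that cuts out the bound chromatin fragments. Young MSCs came from mice aged 3 to 5 months and old MSCs from mice aged 18 to 22 months, and all cells were kept in culture at 2% oxygen. Each age and mark had 3 libraries, 12 in all, and the cells of a sample were split over 1 tube for each antibody. The labels give no strain, sex or treatment. They also do not say whether the 3 samples of an age were separate animals, so the spread between them may be technical. The value of a region is its read count over the library's total, times a constant, and scaled between libraries of a mark, and it is called scaled signal below. It is not divided by length, so levels of different regions or genes are compared only per kb.

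Bone mineral is a crystal of calcium and inorganic phosphate, and inorganic pyrophosphate blocks its growth. ANK and ABCC6 serve the supply of pyrophosphate or of its precursor ATP to the outside of the cell, and ENPP1 makes pyrophosphate from ATP. The phosphatase ALPL splits pyrophosphate and PHOSPHO1 frees phosphate inside matrix vesicles, while SLC20A1 and SLC20A2 carry phosphate into cells. H3K27ac marks active promoters and enhancers, and H3K27me3 is laid down by the Polycomb system over silenced genes.

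The H3K27ac libraries held 2750953 to 5541429 reads and the H3K27me3 libraries 3622108 to 9947515, the totals being implied by the value of 1 read. Old replicate 2 was the shallowest library of both marks, with a median of 12 reads per H3K27ac region against 17 to 30 in the other libraries. The labelled cell type was checked against its markers. All 8 stromal markers examined (Pdgfra, Ly6a, Cd44, Thy1, Eng, Prrx1, Lepr and Cxcl12) had an H3K27ac region over the start site. The blood markers Ptprc, Itgam and Spi1, the endothelial markers Cdh5 and Kdr, the osteoblast markers Bglap, Ibsp and Dmp1 and the adipocyte markers Adipoq and Plin1 had none, whereas Csf1r, Cd68, Pecam1 and Sp7 had one. Both chondrocyte markers, Col2a1 and Acan, had one too, and their summed H3K27ac signal ranged from 77.1 to 101 in young and from 103 to 124 in old libraries. The 2 markers went opposite ways. Col2a1 held 53.9 to 81.9 in young and 90.1 to 115 in old libraries, and Acan 18.1 to 23.2 in young and 9.44 to 14.3 in old.

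The promoters of the members are shown first, since the state of the start site separates the genes below. Each line gives the bases directly upstream of a RefSeq transcript start, on the gene's strand, with GRCm38.p6 coordinates. The Slc20a1 line was instead cut at an annotated start within these bases. It holds 241 bases, while the other lines and the promoters behind the shares below hold 250. Capitals mark matches on either strand to RUNX (TGTGGT), AP-1 (TGANTCA), TEAD (GGAATG), C/EBP (TTGCNNAA) or the TATA box (TATAAA).
Ank, chr15:27466427-27466676, plus strand: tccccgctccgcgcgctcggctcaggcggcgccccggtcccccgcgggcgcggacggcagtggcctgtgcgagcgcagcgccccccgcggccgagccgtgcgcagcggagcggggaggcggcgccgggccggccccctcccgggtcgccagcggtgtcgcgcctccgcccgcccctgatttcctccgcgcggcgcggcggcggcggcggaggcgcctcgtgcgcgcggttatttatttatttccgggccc
Enpp1, chr10:24712160-24712409, minus strand: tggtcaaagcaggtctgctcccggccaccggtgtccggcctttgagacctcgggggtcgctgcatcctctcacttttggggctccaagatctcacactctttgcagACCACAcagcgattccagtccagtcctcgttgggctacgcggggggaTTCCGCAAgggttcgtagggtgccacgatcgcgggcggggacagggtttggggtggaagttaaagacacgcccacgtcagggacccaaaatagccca
Alpl, chr4:137796385-137796634, minus strand: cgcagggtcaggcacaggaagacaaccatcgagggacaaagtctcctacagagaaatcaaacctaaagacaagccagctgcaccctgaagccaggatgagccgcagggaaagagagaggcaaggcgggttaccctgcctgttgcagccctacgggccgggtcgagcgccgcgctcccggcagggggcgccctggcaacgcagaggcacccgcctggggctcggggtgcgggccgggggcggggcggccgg
Phospho1, chr11:95824250-95824499, plus strand: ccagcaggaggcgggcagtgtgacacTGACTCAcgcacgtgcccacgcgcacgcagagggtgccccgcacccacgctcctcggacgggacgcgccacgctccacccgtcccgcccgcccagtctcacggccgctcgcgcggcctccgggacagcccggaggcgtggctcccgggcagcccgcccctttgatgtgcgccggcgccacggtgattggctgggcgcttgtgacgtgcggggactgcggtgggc
Slc20a1, chr2:129198523-129198763, plus strand: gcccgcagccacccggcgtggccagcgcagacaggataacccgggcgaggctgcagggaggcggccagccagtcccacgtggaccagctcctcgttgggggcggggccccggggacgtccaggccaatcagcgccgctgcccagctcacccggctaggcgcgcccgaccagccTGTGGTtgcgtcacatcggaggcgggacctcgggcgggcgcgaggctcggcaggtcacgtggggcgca
The sequence table matched 5 of the 7 members, with a second, internal start for Alpl and for Slc20a1; Slc20a2 and Abcc6 were not matched. The Ank promoter was 81.2% G and C and held 49 CpG sites, 1.19 times the number its base composition gives. The Phospho1, Slc20a1, Alpl and Enpp1 promoters were 75.6%, 75.5%, 68.4% and 61.2% G and C. Over 32851 promoters of the table the median was 52.4%, and the median CpG ratio was 0.373. None of the 5 motifs was present upstream of Ank or at the first Alpl start. Enpp1 held 1 RUNX and 1 C/EBP match, the first Slc20a1 start 1 RUNX match and Phospho1 1 AP-1 match. The internal starts, not printed here, held 1 TATA box match at Alpl and 3 TEAD matches at Slc20a1. Of all promoters, 14.0% held the RUNX letters, 9.56% those of C/EBP, 6.75% those of AP-1, 12.6% those of TEAD and 12.4% those of the TATA box. The E-box letters CANNTG, not capitalized here, were present in 66.2% of all promoters and absent upstream of Ank and Enpp1.

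The 7 genes fell into separate chromatin states. The start sites of Ank, Enpp1, Slc20a1 and Slc20a2 lay in an H3K27ac region and in no H3K27me3 region, as did 46.9% of all protein-coding genes. Phospho1 and Abcc6 had H3K27me3 and no H3K27ac at the start site, as 25.3% of genes did. Alpl was the 1 member with both marks there, a state of 3.17% of genes. No member was without either mark, against 24.6% of all genes.

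**Figure D1:**
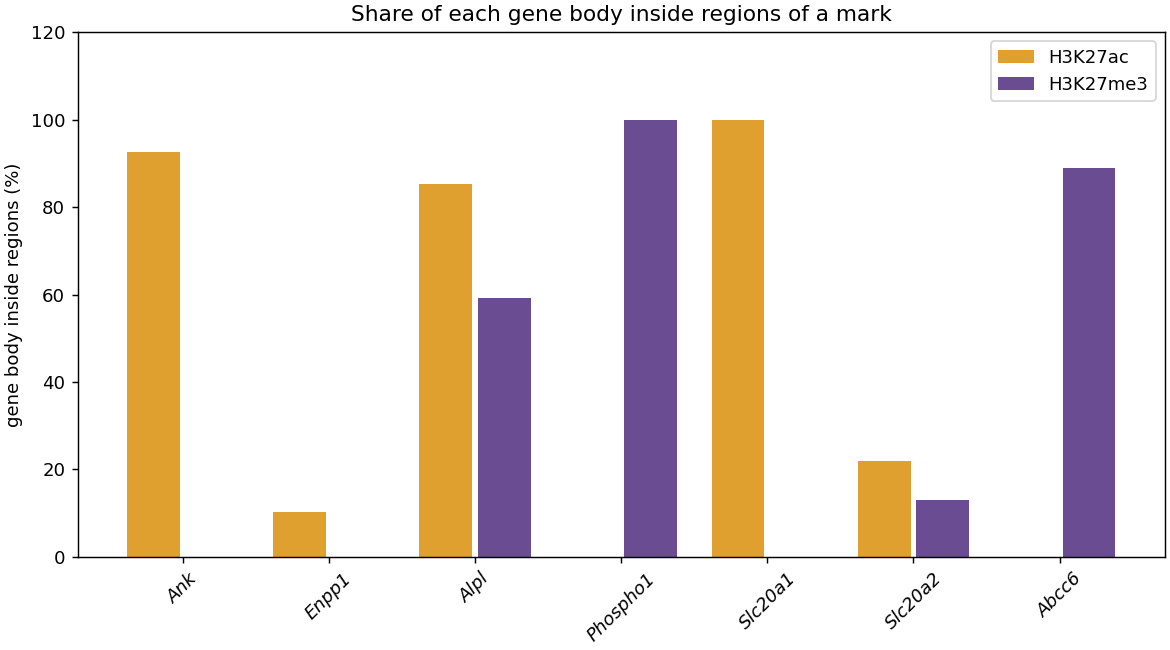
Share of each gene body, in percent, that lay inside H3K27ac (yellow) or H3K27me3 (purple) regions. Ank and Slc20a1 were covered by H3K27ac alone at 92.6% and 100%, Phospho1 and Abcc6 by H3K27me3 alone at 100% and 88.8%, and Alpl by both marks.

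Ank encodes a membrane protein needed for the release of ATP, and thereby pyrophosphate, and loss of the gene causes progressive joint mineralization in mice. The gene spans chr15:27466677-27594909 on the plus strand (mm10). H3K27ac regions covered 92.6% of its body, more than in 82.0% of all genes, against a median of 9.65%. No H3K27me3 region lay in the gene. A run of 9 touching H3K27ac regions reached over 90 kb, from the promoter to an intron at chr15:27465001-27555000. The summed scaled signal of this run was 116, 137 and 142 in the young and 214, 316 and 172 in the old samples. The lowest old sample therefore lay above the highest young one, the means differed 1.77-fold, and the ratio was 1.46 without old replicate 2. Per kb, the run held 1.47 on average in young and 2.60 in old samples. In bulk samples a larger share of cells carrying the mark and more of the mark per cell cannot be told apart.

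Within this run the difference was uneven. The region over the start site and the first exon, chr15:27465001-27473500, held 16.0, 19.0 and 19.1 in young and 19.9, 34.6 and 21.9 in old samples, a log2 fold change of 0.45 ± 0.20 (SE, n = 3 per age) that was 0.21 without old replicate 2. The intronic region directly downstream, chr15:27473501-27477500, held 3.59, 4.62 and 2.30 in young and 9.96, 14.9 and 9.17 in old samples. Its log2 fold change was 1.58 ± 0.32. The intronic region from which the genes were chosen, chr15:27502001-27505000, lies 35.3 kb into the gene and held 2.29, 1.73 and 4.60 in young and 12.8, 13.4 and 7.64 in old samples. It rested on 3 to 14 reads in young and 15 to 32 in old libraries. Its log2 fold change of 1.85 ± 0.35 was the largest of all 62 member regions. The broad region that follows, chr15:27515501-27548500, is 33 kb long and covers exons and introns. It held 36.6, 48.5 and 47.0 in young and 78.1, 105 and 61.2 in old samples, with 84 to 196 reads per library and a log2 fold change of 0.86 ± 0.15. In each of these regions the old samples were above the young ones without overlap. The 3 beyond the start site were named for their small adjusted p, so their separation and larger change follow from that choice. The 24.5 kb intronic region chr15:27477501-27502000 overlapped between ages, with a log2 fold change of 0.48 ± 0.18, close to that of the start site region. The 7 kb region from chr15:27505001 overlapped too, at 0.80 ± 0.26, and the rest of the run did not.

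The region names in the table carry the tag Old, Young or Old+Young. Of 149 H3K27ac regions tagged Old in the whole table, 5 lay in the Ank window, and Ank was the 1 gene window with 5 or more. Together these 5 intervals measure 13.5 kb. Their sum was 9.15, 10.96 and 9.54 in young and 35.1, 49.5 and 27.01 in old samples, on 19 to 29 and 53 to 88 reads. The means differed 3.77-fold, and 3.14-fold without old replicate 2. In old samples the tagged intervals reached 2.76 per kb, close to the 2.50 per kb of the 7 other regions of the gene before its 3′ end, whereas in young samples they held 0.732 per kb against 1.51. The tags were made from the same libraries, so these values are a description. The 7 other regions differed 1.65-fold, and 1.34-fold without old replicate 2.

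At the 3′ end of the gene the ages overlapped. The 52 kb region chr15:27580501-27632500, which covers the last part of Ank and the start site of the neighbour Otulin, held 108, 126 and 115 in young and 118, 140 and 113 in old samples. Its log2 fold change was 0.08 ± 0.10. From chr15:27542635 onward the Ank body overlaps that of Otulin on the other strand, and CUT&RUN reads do not tell the 2 genes apart. Of all 16 Ank regions, 15 were higher in old samples and 9 did not overlap. Of all H3K27ac regions, 14.5% did not overlap between the ages. The 9 regions include the 5 tagged Old, which were set apart with the same libraries. Ank was also chosen on this contrast, so its counts are a description and no support for a difference. Old replicate 2, the shallowest library, was the highest sample in most Ank regions, and the part of depth in this was not tested. The chondrocyte marker sum given above also lay higher in all old libraries. Col2a1 was higher and Acan lower in all of them, and the part of this in the Ank values was not tested.

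**Figure D2:**
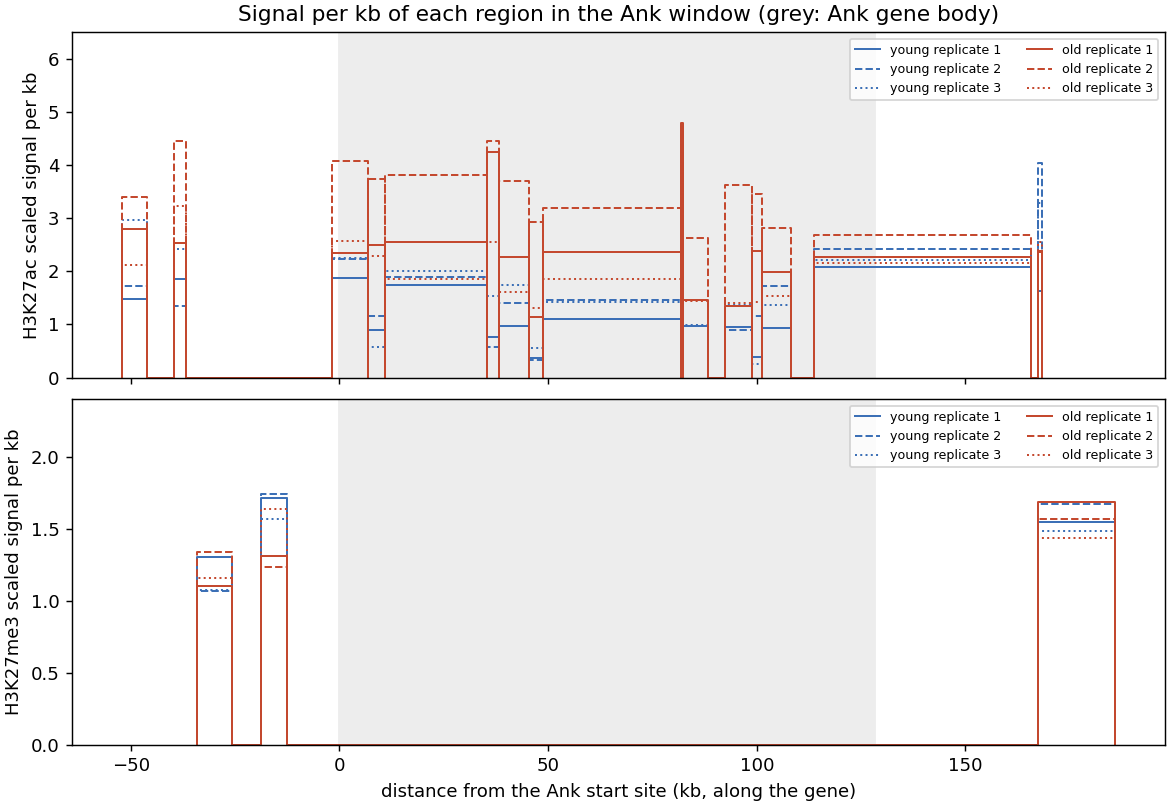
Scaled signal per kb of each H3K27ac (top) and H3K27me3 (bottom) region of the Ank window against the distance from the start site in kb, with 1 line per library and the gene body in grey. Old replicate 2 (red, dashed) is the highest line over most of the gene body, old replicate 3 (red, dotted) falls among the young ones (blue) in some regions such as the 24.5 kb intronic one, the ages overlap at the 3′ end, and no H3K27me3 region lies in the body.

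The intronic region was read for sequence features because its signal led to the choice of genes. The stretch below, chr15:27502064-27502231 (GRCm38.p6, plus strand), holds 3 matches to the RUNX letters within 48 bases, in capitals.
Ank intronic stretch: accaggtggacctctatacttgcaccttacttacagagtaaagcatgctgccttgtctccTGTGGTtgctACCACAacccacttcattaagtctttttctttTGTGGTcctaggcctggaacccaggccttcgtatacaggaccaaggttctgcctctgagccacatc
The whole region held 4 RUNX, 1 TEAD, 1 C/EBP and 3 TATA box matches, no AP-1 match and 12 E-box matches. Of 2465 H3K27ac regions of the same 3000 bases, 91.3% held a RUNX match and 25.6% held at least as many as this one. An AP-1 match was present in 75.1% of them. The region was 47.3% G and C against a median of 44.8%, and 17.2% of it was masked as repeat against a median of 17.9%.

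H3K27me3 lay on both flanks of Ank. The nearest region upstream, chr15:27448001-27454000, held 10.3, 10.5 and 9.42 in young and 7.86, 7.39 and 9.83 in old samples, a log2 fold change of -0.26 ± 0.20 with an adjusted p of 0.60 (limma). Summed over the window, H3K27me3 was 50.0, 50.5 and 46.0 in young and 48.5, 47.8 and 46.3 in old samples, and the difference did not pass the test (log2 fold change -0.04 ± 0.10, adjusted p = 0.90 by limma). H3K27ac over the same window was 254, 302 and 305 in young and 387, 544 and 333 in old samples. At the limit of the window, the last H3K27ac region inside it on the upstream side held 8.82, 10.4 and 17.8 in young and 16.7, 20.4 and 12.7 in old samples. The first outside it, 59.2 kb from the gene, held 8.17, 7.50 and 12.5 in young and 11.6, 18.1 and 9.68 in old samples. The ages overlapped in both.

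Enpp1 encodes the ectoenzyme that makes pyrophosphate from ATP, and humans who lack it calcify arteries. The gene spans chr10:24637914-24712159 on the minus strand. Its H3K27ac was confined, within the body, to 10.3% of its length, and no H3K27me3 region lay in it. The region over the start site, chr10:24706501-24713500, held 10.1, 15.6 and 9.87 in young and 14.0, 20.4 and 10.2 in old samples. The ages overlapped and the log2 fold change was 0.29 ± 0.25 (limma, adjusted p = 0.76), with 0.04 without old replicate 2 and 0.52 without old replicate 3. The 1 Enpp1 H3K27ac region without overlap lay downstream of the gene at chr10:24566501-24611000, over the start of Ccn2, a matricellular growth factor gene. It held 106, 115 and 114 in young and 118, 120 and 132 in old samples (log2 fold change 0.14 ± 0.09, limma adjusted p = 0.66).

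The nearest H3K27me3 region to Enpp1, 7.84 kb upstream, held 3.16, 3.02 and 3.40 in young and 2.62, 6.82 and 1.90 in old samples. Old replicate 2 sets its sign, with a log2 fold change of 0.04 that became -0.43 without that library. A second one, 3′ of the gene at chr10:24627001-24631500, held 6.32, 4.02 and 6.02 in young and 8.73, 7.39 and 6.34 in old samples. These did not overlap, but the difference did not pass the test (log2 fold change 0.44 ± 0.24, limma adjusted p = 0.44). The H3K27me3 regions filled 4.02% of the Enpp1 window, and their sum was 7.04 to 9.48 in young and 8.24 to 14.2 in old samples.

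Alpl encodes tissue-nonspecific alkaline phosphatase, which degrades pyrophosphate and marks cells entering the osteoblast lineage. The gene spans chr4:137741733-137796384 on the minus strand. H3K27ac regions covered 85.4% and H3K27me3 regions 59.3% of its body, the 1 member with both marks over most of the gene. All 5 H3K27ac regions of its window shared bases with H3K27me3 regions. The H3K27ac region over the start site, chr4:137779001-137797000, held 33.3, 34.6 and 29.9 in young and 36.7, 26.7 and 27 in old samples. The ages overlapped (log2 fold change -0.13 ± 0.16, limma adjusted p = 0.85).

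The H3K27me3 region over the Alpl start, chr4:137793501-137819000, held 51.7, 54.9 and 45.2 in young and 49.8, 55.7 and 44.1 in old samples. Both ages covered the same range (log2 fold change -0.02 ± 0.12, limma adjusted p = 0.95). The next H3K27me3 region upstream, chr4:137823501-137836000, held 35.9, 36.6 and 35.0 in young and 32.7, 23.9 and 28.2 in old samples, all lower. Its log2 fold change of -0.35 ± 0.14 did not pass the test (limma, adjusted p = 0.24) and was -0.23 without old replicate 2. Per kb, the 3 large H3K27ac regions of Alpl held 1.69 to 1.83 on average. The start regions of the other members held 1.91 at Enpp1, 2.56 at Ank, 3.26 at Slc20a1 and 3.36 at Slc20a2. The other H3K27ac regions of the window were 1 kb or shorter and held at most 11 reads in any library.

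Phospho1 encodes a phosphatase of phosphocholine and phosphoethanolamine that starts mineral inside matrix vesicles. The gene, chr11:95824499-95832140 on the plus strand, lay wholly within a 79 kb H3K27me3 region, chr11:95774501-95853500, that also covers the starts of Abi3 and Gngt2. This region held 165, 182 and 203 in young and 194, 226 and 180 in old samples, a log2 fold change of 0.12 ± 0.10 (limma, adjusted p = 0.62). No H3K27ac region lay in the gene at either age. The nearest one, 33.0 kb downstream, held 5.88, 9.81 and 9.21 in young and 7.57, 7.08 and 6.12 in old samples, with overlap (log2 fold change -0.22 ± 0.29, limma adjusted p = 0.86). H3K27me3 regions filled 90.2% of the Phospho1 window, the highest share of the 7 genes.

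Slc20a1 and Slc20a2 encode the sodium-dependent phosphate transporters PiT-1 and PiT-2. Slc20a1, chr2:129198764-129211616 on the plus strand, lay whole inside a 25 kb H3K27ac region, chr2:129191501-129216500. It held 76.4, 76.7 and 91.4 in young and 80.1, 83.4 and 81.5 in old samples. The old values fell within the young range, and the log2 fold change of 0.01 ± 0.11 (limma, adjusted p = 0.99) changed sign when young replicate 1 was left out (-0.04). The other 3 H3K27ac regions of the Slc20a1 window had log2 fold changes of 0.35, 0.39 and 0.42, all with overlap and adjusted p of 0.52 or more (limma).

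H3K27me3 was present on both flanks of Slc20a1 and absent from the gene. The nearest region, chr2:129220001-129230000, held 11.9, 8.65 and 8.37 in young and 10.7, 13.6 and 13.9 in old samples, a log2 fold change of 0.40 ± 0.20. The next, chr2:129231501-129240000, held 11.3, 12.3 and 10.7 in young and 16.2, 13.1 and 14.9 in old samples, without overlap and with a log2 fold change of 0.35 ± 0.18. Neither passed the test (limma, adjusted p = 0.38 for both).

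Slc20a2, chr8:22476788-22569612 on the plus strand, had H3K27ac at its start in a region shared with Smim19, chr8:22475001-22479500. It held 12.7, 19.6 and 14.8 in young and 11.6, 18.9 and 13.2 in old samples, with overlap (log2 fold change -0.11 ± 0.23, limma adjusted p = 0.92). A region 124 kb from the start, beyond the gene, was lower in all old samples at 2.79, 3.15 and 3.57 against 6.21, 6.35 and 3.62. It rested on 4 to 19 reads and did not pass the test (log2 fold change -0.65 ± 0.38, limma adjusted p = 0.61). Inside the gene, the H3K27me3 region chr8:22529501-22541500 held 15.8, 15.7 and 14.6 in young and 12.9, 5.12 and 13.3 in old samples. All old samples were lower, but old replicate 2 rested on 9 reads, and without it the log2 fold change went from -0.65 ± 0.26 (limma, adjusted p = 0.27) to -0.22. The H3K27me3 region nearest to the start, chr8:22435001-22460500, overlapped between ages (log2 fold change -0.14 ± 0.14, limma adjusted p = 0.69) and was at 0.06 without old replicate 2.

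Abcc6 encodes a transporter that releases ATP, mainly in liver, and its loss causes ectopic mineralization of elastic tissue. The gene, chr7:45967555-46030302 on the minus strand, was covered to 88.8% by 2 H3K27me3 regions. The one over the start, chr7:46018501-46032500, held 36.5, 40.6 and 36.1 in young and 28.2, 46.1 and 33.3 in old samples (log2 fold change -0.10 ± 0.15, limma adjusted p = 0.82). The ages overlapped, with old samples spread more widely. The nearest H3K27ac region lay 2.70 kb upstream over the start of Nomo1, at chr7:46033001-46044500, and held 20.6, 21.9 and 18.7 in young and 19.9, 20.4 and 29.6 in old samples. Its log2 fold change was 0.17 ± 0.19 (limma, adjusted p = 0.83).

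Apart from Ank in H3K27ac, the members are counted here beside all regions. The counts are too small to be read as a result about these genes. Of the 25 H3K27ac regions of the other 6 genes, 14 were higher and 11 lower in old samples, and 2 did not overlap (8%, against 14.5% of all regions). By limma 0 were called at an adjusted p under 0.05 (against 0.0822% of all regions). An unadjusted p under 0.05 was found for 1 of the 25, and for 3035 of all 31617 regions. The median log2 fold change was 0.02 beside -0.003 over all regions. Of the 21 H3K27me3 regions of all 7 genes, 10 were higher and 11 lower, 5 did not overlap (23.8%, against 19.1% of all regions) and 0 were called, against 0.488% of all. Among them 2 had an unadjusted p under 0.05, as did 3894 of all 28047 regions, and the smallest adjusted p was 0.24 (limma). edgeR on whole reads also called 0 H3K27me3 member regions.

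**Figure D3:**
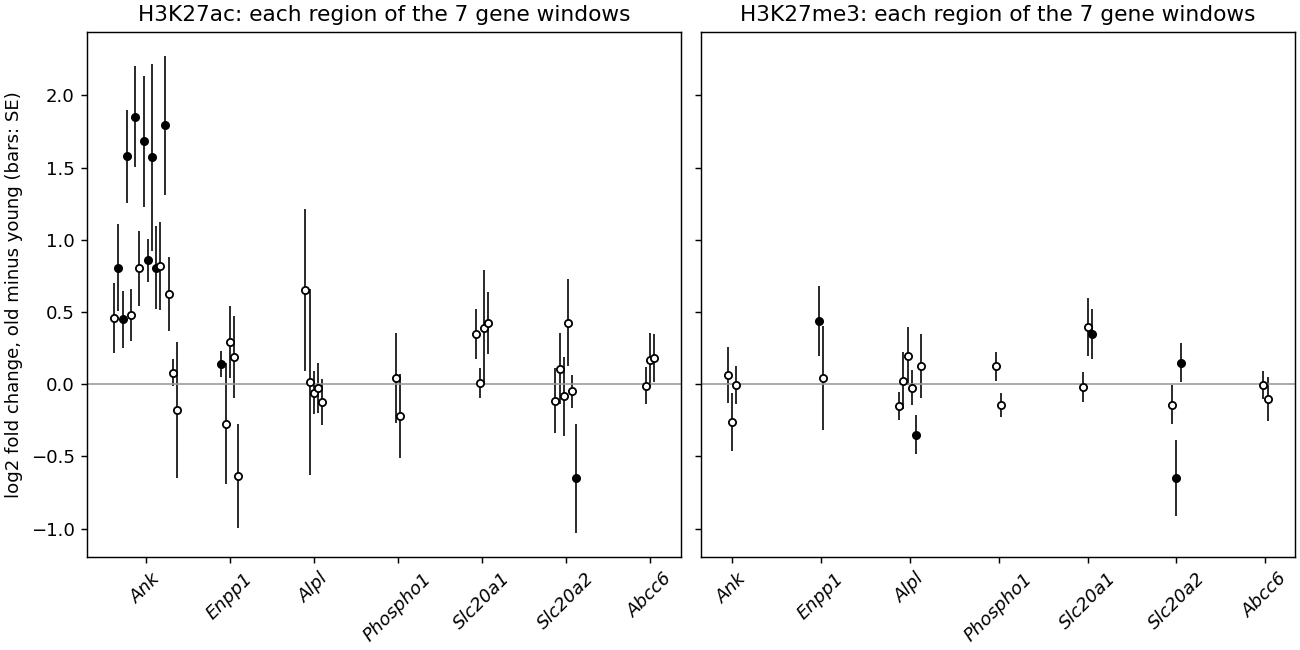
Log2 fold change, old minus young, of each of the 41 H3K27ac (left) and 21 H3K27me3 (right) regions by gene, in genome order, with SE bars and filled points where the 3 old and 3 young samples do not overlap. The Ank H3K27ac regions reach 1.85, and the other members lie between -0.65 and 0.65 in both marks.

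Summed over the gene windows, 0 of the 6 members other than Ank were called in H3K27ac and 0 of 7 in H3K27me3 by limma, where 0.679% and 0.436% of all windows were. None of these was under an unadjusted p of 0.05, a count whose share over all windows was not taken. The edgeR fit on whole reads also called 0 of them. Windows of neighbouring genes share regions and are not independent. H3K27ac windows without overlap were those of Enpp1 and of Ank, whose contrast chose the genes. Of all H3K27ac windows, 16.6% had no overlap. Enpp1 summed to 143, 145 and 153 in young and 154, 161 and 162 in old samples, the Ccn2 region making up most of it (log2 fold change 0.11 ± 0.08, limma adjusted p = 0.62). No H3K27me3 member window was without overlap, against 19.5% of all. The H3K27me3 sum of the Phospho1 window was 656 to 778 in young and 610 to 731 in old samples, much of it from a 153.5 kb region that lies only partly inside the window.

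**Figure D4:**
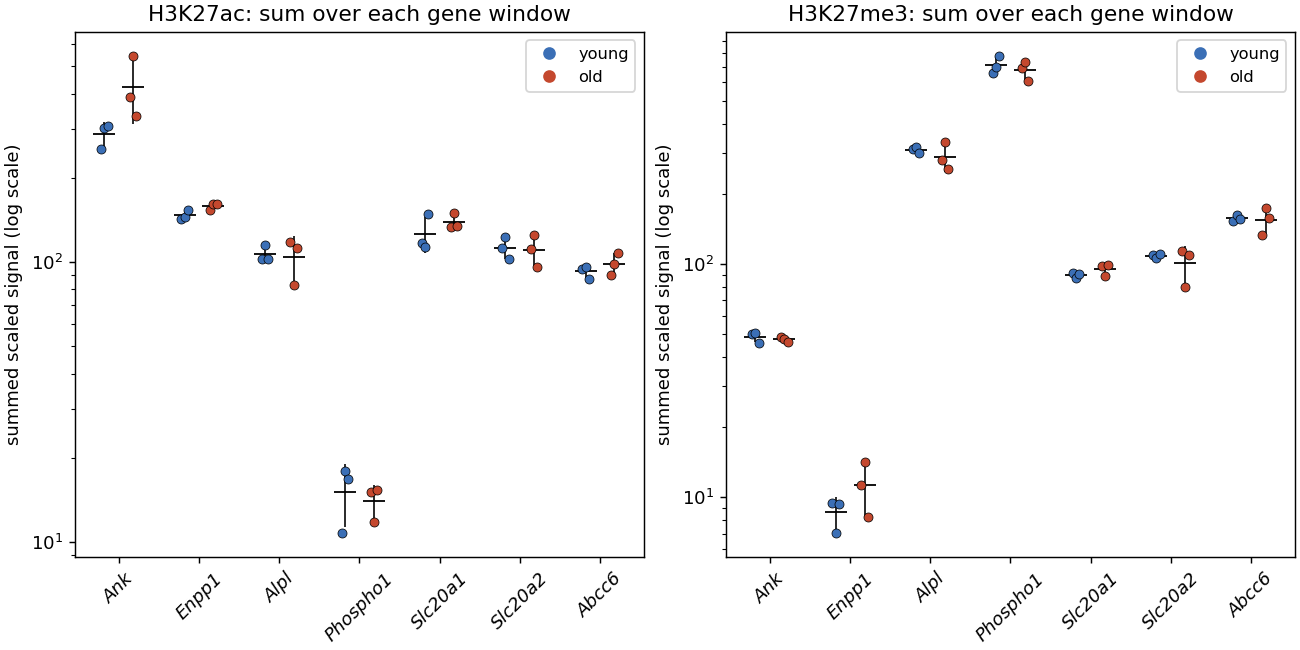
Summed scaled signal over each gene window on a log axis, for H3K27ac (left) and H3K27me3 (right). Points are libraries, and bars give the mean and SD of 3 samples per age. Only the Ank and Enpp1 H3K27ac windows separate the ages.

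The balance of the marks was taken as the log2 ratio of H3K27ac to H3K27me3 window signal in the same sample number. Each mark was scaled on its own, so the level of this ratio is arbitrary, and its order among genes follows the length each mark covers as well as its signal per kb. It was highest for Enpp1 (4.02 in young, 3.79 in old) and Ank (2.54 and 3.10), near 0 for Slc20a1 and Slc20a2, and lower for Abcc6 (-0.76 and -0.65), Alpl (-1.53 and -1.47) and Phospho1 (-5.54 and -5.55). On average the Ccn2 region made up 112 of 147 in young and 123 of 159 in old samples of the Enpp1 H3K27ac sum. The 153.5 kb region made up 528 of 711 and 478 of 678 of the Phospho1 H3K27me3 sum. Both lie only partly inside the window and cover starts of neighbouring genes, so the order rests partly on them. Slc20a1 and Slc20a2 are neighbours in this order, as are Enpp1 and Ank, and the ranges within each pair overlapped in old but not in young samples. At Ank the ratio was 2.33, 2.57 and 2.72 in young and 2.99, 3.50 and 2.83 in old samples, so all old samples were higher. This separation carries the H3K27ac contrast that chose the genes and is a description only. The means differed by 0.57, and by 0.37 without old replicate 2. The H3K27me3 sum beside it was 48.8 ± 2.44 for young MSCs and 47.5 ± 1.11 for old MSCs (SD, n = 3). In the other 6 genes the ages overlapped, with differences from -0.23 at Enpp1 to 0.11 at Abcc6. The ratio was higher in old samples for 5 of the 7 genes, Ank among them. It was higher for 60.7% of the 15640 genes with both marks in the window. The median difference over those genes was 0.06.

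**Figure D5:**
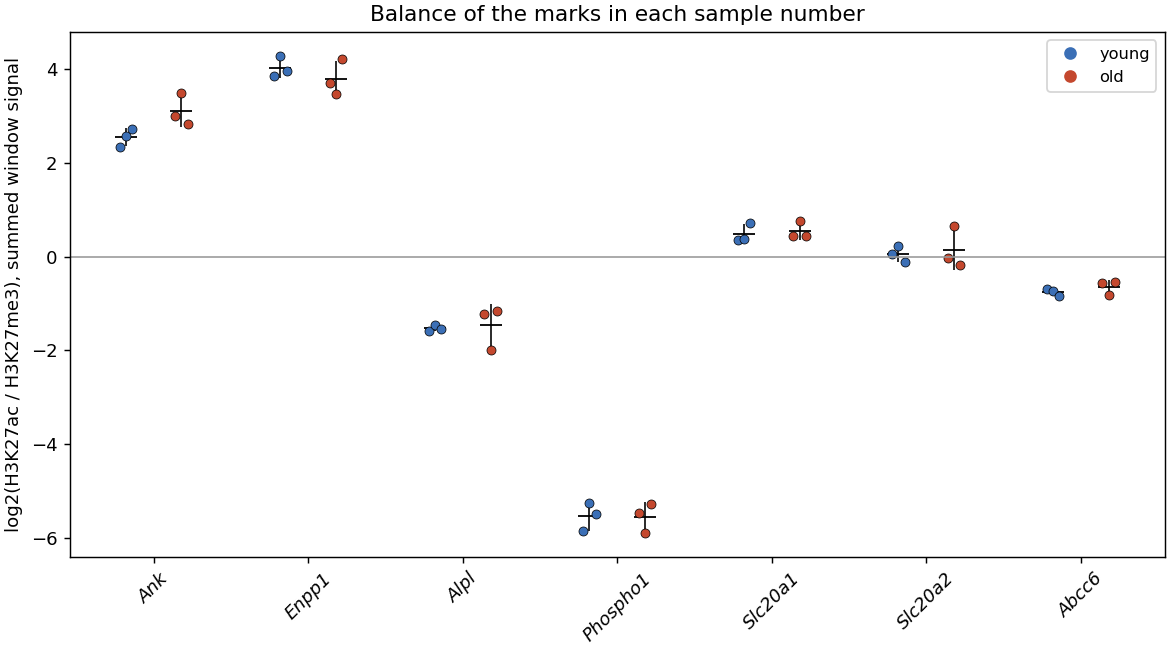
Log2 ratio of H3K27ac to H3K27me3 window signal for each sample number, with mean and SD of 3 samples per age. Ank is the 1 gene whose old samples, from 2.83 to 3.50, all lie above its young samples, from 2.33 to 2.72. Its H3K27ac contrast chose the genes, so this is a description.

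A further 34 genes of phosphate handling and mineralization were examined as a list. They had 136 H3K27ac regions, of which 0 were called by limma (against 0.0822% of all regions). Of the 136, 15 did not overlap (11.03%, against 14.5% of all regions). They had 91 H3K27me3 regions, of which 1 was called (against 0.488% of all regions) and 15 did not overlap (16.5%, against 19.1% of all). The called region was that of Smpd3, which encodes the neutral sphingomyelinase whose loss in mice leaves bone poorly mineralized. It spans 97.5 kb at chr8:106265501-106363000, start site included, and held 199, 200 and 213 in young and 169, 138 and 136 in old samples. H3K27me3 fell there by a log2 fold change of -0.47 ± 0.09 (limma, adjusted p = 0.031). The call was lost when any 1 young replicate was left out, with values from -0.49 to -0.43, and in limma without trend and robust moderation.

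Of 33 H3K27ac windows of the list, 1 was called (against 0.679% of all windows), that of Anxa6, a calcium-binding protein of matrix vesicles. It held 118, 142 and 126 in young and 146, 175 and 173 in old samples (log2 fold change 0.35 ± 0.09, limma adjusted p = 0.031). It was not called when young replicate 1 or 3, or old replicate 2 or 3, was left out, with values from 0.29 to 0.34. It was also not called with the 10 kb flank, with the signal weighted by overlap, in limma without trend and robust moderation, or as deposited, where the value was 0.23. The largest H3K27ac window differences were those of Galnt3, which glycosylates the phosphate hormone FGF23, and Stc1, a secreted regulator of phosphate uptake. Galnt3 held 5.55, 4.04 and 5.26 in young and 2.39, 1.57 and 3.06 in old samples (log2 fold change -0.96 ± 0.42, limma adjusted p = 0.33). Stc1 held 12.7, 13.3 and 11.5 in young and 8.77, 7.08 and 7.13 in old samples (log2 fold change -0.68 ± 0.26, limma adjusted p = 0.25), and its value was -1.73 with a flank of 10 kb. Both were lower in all old samples, and neither passed the test.

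Of 33 H3K27me3 windows of the list, 1 was called (against 0.436% of all windows), that of Smpd3 (limma, adjusted p = 0.024). It holds only the Smpd3 region given above, and its call was lost under the same settings. The largest H3K27me3 window differences of the list were those of Chka, the choline kinase, and Adora2b, an adenosine receptor. Chka held 3.95, 4.02 and 5.23 in young and 4.15, 0.569 and 4.44 in old samples, and its log2 fold change of -0.74 ± 0.43 (limma, adjusted p = 0.44) was -0.02 without old replicate 2. Adora2b held 29.2, 26.2 and 24.3 in young and 19.0, 17.1 and 20.9 in old samples, without overlap (log2 fold change -0.47 ± 0.14, limma adjusted p = 0.18). The list windows had a median log2 fold change of -0.004 in H3K27ac and -0.04 in H3K27me3.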

How the data were processed

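H3K27ac and H3K27me3 were mapped by CUT&RUN in young and old mouse MSCs, with 3 libraries per age and mark. Per the labels, the submitters' processing notes name Bowtie2, Picard and the mm10/GRCm38 build, without versions; the peak caller is not given in the sources used here. The authors deposited 1 table per mark, whose signal is called RPKM in the table's name. Every value is a whole multiple of the value of 1 read at a fixed length of 0.5 kb (100% of values within 0.01 of a whole read), so the signal is the read count over the library total, times a constant, and not divided by region length. All per-sample columns were used. The tables list regions only, so signal outside them was not analysed here, and no filter on low values was applied, so all 62 member regions were tested. The 7 genes and all lists were chosen with earlier results of these data known.

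Genes were taken from GENCODE vM21 (mm10), and regions overlapping a gene body plus 50 kb by at least 1 base were assigned to it. Libraries of 1 mark were brought to a common scale by median-of-ratios factors, and log2(signal + 0.5) was tested by limma 3.58.1 (R 4.3.3) with trend and robust moderation, Benjamini-Hochberg adjusted over all regions or all gene windows of the mark. Fold changes are on this log2 scale, which understates changes of low regions, and a call is an adjusted p under 0.05. With 3 samples per age, each p-value weighs the difference of means against a variance that limma moderates with that of other regions or windows.

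Named regions are, for each gene and mark, the one over or nearest to the start site, every called one, and the one of largest change among those whose ages do not overlap. Of the other 34 genes, those with a called region or window and the 2 windows of largest change per mark are named; the called windows were added to the rule after their values were seen. Motifs were searched on both strands. edgeR 4.0.16 (quasi-likelihood, TMM) was run on the recovered whole reads as an alternative, and called 96 H3K27ac and 380 H3K27me3 regions in all. Depth was 2750953 to 9947515 reads per library, and 1 read is worth 0.201 to 0.727 of signal before scaling. The labels do not say whether sample numbers pair the young and old samples, so the main fit is unpaired and the replicate block is an alternative. The 2 tables were made separately, so no test was run across marks.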

Additional observations from a re-analysis of the deposited data

How the results depend on the processing

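Depth limits single regions, many of which rest on fewer than 100 reads in a library. With the values as deposited the median log2 fold change of all regions moved to -0.117 in H3K27ac and -0.126 in H3K27me3, and changes under that setting are relative to it. The H3K27ac member regions under the threshold all lay in Ank, whose contrast chose the genes, so their count is a description only and its steadiness is not read. It was 3, and 0 in limma without trend and robust moderation, and ranged from 0 to 4 when 1 sample was left out. Called H3K27me3 regions and windows of the members were 0 under every alternative run. Called H3K27ac windows, 0, became 1 (Ank) with the replicate block and ranged from 0 to 1 when 1 sample was left out. The Ank window holds the same contrast, so this count too is a description only and its steadiness is not read. Over all H3K27ac regions 26 were called (10 higher in old samples), but 105 as deposited (16 higher), 63 with a pseudocount of 2, 96 by edgeR (55 higher), 81 with the replicate block, 0 without trend and robust moderation and 2 to 45 with 1 sample left out. Over all H3K27me3 regions 137 were called (23 higher), but 774 as deposited (21 higher), 81 without the lowest quartile, 380 by edgeR (77 higher), 309 with the replicate block, 35 without moderation and 10 to 313 with 1 sample left out. For H3K27ac windows 117 (71 higher) became 37 as deposited (3 higher), 132 in edgeR (43 higher), 50 weighted by overlap, 13 without moderation and 22 to 274 with 1 sample left out. For H3K27me3 windows 76 (21 higher) became 618 as deposited (20 higher), 157 in edgeR (74 higher), 49 without the lowest quartile, 10 without moderation and 23 to 193 with 1 sample left out. Same-numbered samples did not visibly vary together (correlations of -0.0777 to 0.0656). These correlations rest on 3 samples per age and many low counts, so they cannot exclude a shared day or batch. Whether the numbers pair the samples is not known, and the cause of these shifts was not tested.

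The number of members with a higher balance in old samples was 5, became 3 of 5 genes with regions of both marks at a gene body plus 10 kb (Ank and Phospho1 lack 1 mark there), and was 4 to 6 when 1 sample was left out. Some small changes turned sign, none of them called. The Slc20a1 start region in H3K27ac was at -0.112 as deposited, -0.0124 in edgeR and -0.0375 to 0.0915 when 1 sample was left out. With 1 sample left out, the H3K27ac changes of the Slc20a2 start region ranged from -0.311 to 0.0511 and those of the region nearest to Abcc6 from -0.0127 to 0.266. In H3K27me3 the region nearest to Enpp1 was at -0.0614 as deposited and ranged from -0.429 to 0.377, the Alpl start region from -0.105 to 0.0641, the region nearest to Slc20a2 from -0.257 to 0.0617 and the Abcc6 start region from -0.294 to 0.0545. Of 364 recomputed changes of 30 named regions and windows, 319 kept direction and side of the threshold. The Ank H3K27ac regions, whose steadiness is not read, are among them. Leaving out the lowest quartile, limma without moderation and the replicate block keep the fold change as it is, so direction could not turn there. The count is therefore a description only. The Adora2b H3K27me3 window passed the threshold as deposited.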

Other observations

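H3K27ac regions whose values over the 6 libraries were most like those of the intronic Ank region were sought among 19807 regions of at least its mean signal. The 5 most alike were nearest to Ogfod1 (Pearson r = 0.994), Siglecg (0.992), Ttc12 (0.992), Ipo9 (0.991) and Lsp1 (0.987). These are descriptions over 6 points that share depth and age, and the best of so many candidates.

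Beyond the Ank window, within 500 kb on each side, 3 of 3 H3K27ac regions upstream and 11 of 15 downstream were higher in old samples, and 0 were called by limma. The summed H3K27ac signal was 27.1, 22.5 and 36.5 in young and 40.3, 40.9 and 34.1 in old samples upstream, with overlap, and 395, 465 and 455 in young and 510, 625 and 495 in old samples downstream, without overlap. H3K27me3 was higher in 11 of 12 regions upstream, with a summed scaled signal of 498, 480 and 455 in young and 563, 604 and 573 in old samples, and in 2 of 4 downstream. On the whole chromosome 677 of 1404 H3K27ac and 698 of 1260 H3K27me3 regions were higher in old samples.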
